A study of Mus musculus with 18 samples.

Results

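The 9 genes described here take up vitamin A, make, bind, sense or destroy retinoic acid: Stra6, Aldh1a2, Dhrs3, Crabp1, Crabp2, Rara, Rarb, Cyp26a1 and Cyp26b1. They were chosen by symbol among the 22180 genes of the arrays, and each of the 9 had 1 probe set. On GRCm38.p6 the 4 genes that were higher at day 7 than at day 0, averaged over genotypes, lie at chr19:37697738-37701536 (Cyp26a1), chr9:58063793-58154004 (Stra6), chr4:144892534-144928209 (Dhrs3) and chr14:16430839-17082331 (Rarb). Their RNA was followed in mouse embryonic stem cells (F1 of C57Bl6N x 129Sv) that were Pax7+/+ or Pax7-/-, with 3 arrays for each genotype at each of 3 times. At day 0 the cells were undifferentiated and grown with LIF, the cytokine that keeps stem cells from differentiating. At day 7 they were embryoid bodies, floating aggregates of differentiating cells, and at day 21 they were outgrowths of those bodies. The labels give embryoid bodies and outgrowths 1 medium, which held retinoic acid (RA) and ITS and no LIF; they give no dose, and they do not say on which days retinoic acid was present. The labels also do not say how Pax7 was inactivated or whether each genotype was 1 clone or several, and the replicates, called biological, are not tied to separate cultures or lines, so p-values measure the spread between these arrays.

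Retinoic acid is made inside cells from vitamin A. Stra6 is the membrane receptor that lets retinol in from its blood carrier Rbp4, Rdh10 oxidises retinol to retinaldehyde, Dhrs3 reduces retinaldehyde back to retinol, and Aldh1a2 oxidises it to retinoic acid. Crabp1 and Crabp2 bind the acid in the cytoplasm, the receptors Rara and Rarb act with Rxr partners on DNA, and Cyp26a1 and Cyp26b1 hydroxylate the acid for removal. In stem cells and embryos retinoic acid raises the RNA of several of these genes, above all Cyp26a1 and Rarb, and of the 3′ genes of the Hox clusters, which makes their RNA a common readout of the signal.

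The receptors bind pairs of hexamers, and the classical element is a direct repeat with 5 bases between its hexamers. The windows from 250 bases before to 50 bases after each annotated start (RefSeq, GRCm38.p6) were searched on both strands for 2 hexamers in the same orientation, each of them the hexamer AGGTCA, the hexamer AGTTCA, the hexamer GGGTCA or the hexamer GGTTCA. With a spacer of 5 bases the repeat stood in 32 of 32851 windows, or 0.097%, which belong to 31 of 27025 genes. Of the 8 members with a window, 2 had it, Rarb and Cyp26a1, and both sites are shown. The windows of Stra6 and Dhrs3, which were also higher at day 7 averaged over genotypes, had no match. Hexamers are in capitals and both runs are written 5′ to 3′ on the strand of the gene; in Cyp26a1 the hexamers lie on the opposite strand.
Rarb: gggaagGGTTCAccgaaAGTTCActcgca
Cyp26a1: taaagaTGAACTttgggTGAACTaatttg
The Rarb run is chr14:16575507-16575535 (minus strand), with the repeat 37 to 53 bases before a start of the gene. The Cyp26a1 run is chr19:37697770-37697798 (plus strand), with the repeat 16 to 32 bases before the start. With spacers of 2 bases (0.268% of windows) or 1 base (0.222%) no member had a match, which says only that these letters were not in these windows. A match is not a binding site, and of the 11 other measured genes with the 5-base repeat none was higher at day 7 and 1 was lower (limma, adjusted p under 0.05), with a median change of -0.03 log2.

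Values are log2 intensities per gene as summarised by RMA. By the SD of its values an array was read as narrow or wide: there were 10 narrow arrays (SD over probe sets 1.37 to 1.45) and 8 wide arrays (SD 1.79 to 1.85), with array medians between 4.55 and 4.97. In Pax7+/+ the wide arrays were replicate 3 at day 0, replicates 2 and 3 at day 7 and replicate 2 at day 21. In Pax7-/- they were replicate 2 at day 0 and at day 7 and replicates 2 and 3 at day 21, so the number of wide arrays differs between groups. Arrays correlated at 0.914 or more within a set and at 0.653 to 0.789 between sets. Every difference below comes from a limma fit with the 6 groups and the array set as terms. It was adjusted by Benjamini-Hochberg over all genes and called at an adjusted p under 0.05. Errors are standard errors, and differences within the narrow and the wide arrays are given beside many of them. The array set term shifts levels between sets but does not bring both sets to 1 scale, and differences were usually larger on wide arrays. Where groups hold unlike numbers of wide arrays, a fitted difference can lie outside both within-set values. Pax7 itself read between 4.68 and 6.37 on all arrays, and its genotype difference was 0.03 ± 0.23 at day 0, -0.01 ± 0.24 at day 7 and 0.25 ± 0.24 at day 21 (limma adjusted p = 0.98, 0.997 and 0.681); where its probes lie relative to the inactivated part is not known, so this checks no label.

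Several of the retinoic acid genes peaked at day 7 in the values averaged over genotypes, which were compared only after values had been seen. Averaged over both genotypes, 4 of 9 members were higher at day 7 than at day 0 and none was lower, where 4.78% of all genes were higher and 4.99% lower. From day 7 to day 21, 3 of 9 were lower and none higher, where 4.82% of all genes were lower and 2.5% higher. The 4 that rose were Cyp26a1 (5.09-fold), Stra6 (3.06-fold), Dhrs3 (2.22-fold) and Rarb (1.89-fold), and the 3 that then fell were Cyp26a1 (4.35-fold), Dhrs3 (1.70-fold) and Rarb (1.69-fold). Within a genotype, 2 of 9 rose to day 7 in Pax7+/+ and 3 of 9 in Pax7-/- (2.54% and 2.05% of all genes higher). To day 21, 1 of 9 fell in each genotype, Cyp26a1 (4.48% and 0.379% of all genes lower). A called rise and fall within a genotype was thus seen for Cyp26a1 alone. Crabp2 followed another course, higher at day 21 than at day 0 (1.96-fold). Cyp26b1, Rara and Aldh1a2 passed in no comparison. Without regard to the array set, the arrays of day 7 and day 0 did not overlap for 4 of 9 members in Pax7+/+ (5.88% of all genes) and 5 of 9 in Pax7-/- (5.24%). Those of day 21 and day 7 did not overlap for 2 of 9 in each genotype (5.37% and 3.45% of all genes), and those of day 21 and day 0 for 2 of 9 in Pax7+/+ (7.46%) and 3 of 9 in Pax7-/- (7.83%).

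**Figure D1:**
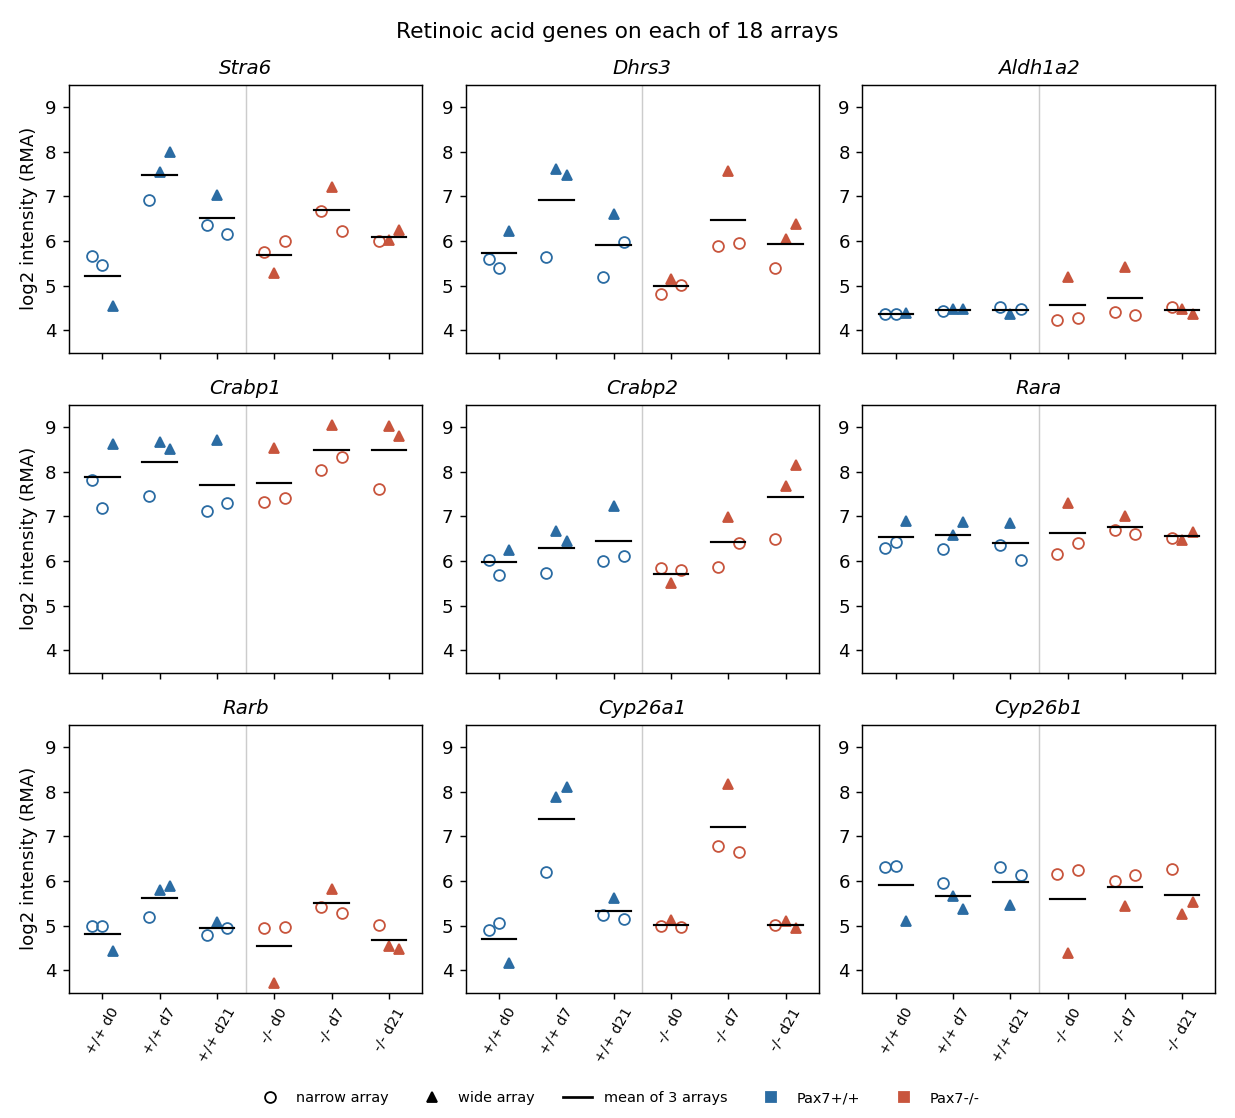
Log2 intensity of the 9 genes on each of the 18 arrays, by genotype and day, with narrow arrays as open circles, wide arrays as filled triangles and the mean of the 3 arrays as a line. All 6 day 7 arrays of Cyp26a1 (lowest 6.20) lie above its 12 other arrays (highest 5.62), while Rara, Cyp26b1 and Aldh1a2 show no such step.

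Clearance was described by Cyp26a1, the enzyme that removes retinoic acid and is itself among its most sensitive target genes. In Pax7+/+ cells Cyp26a1 read 4.90, 5.07 and 4.16 at day 0 (replicates 1 to 3), 6.20, 7.89 and 8.10 at day 7, and 5.24, 5.62 and 5.16 at day 21. In Pax7-/- cells it read 4.99, 5.12 and 4.97 at day 0, 6.79, 8.17 and 6.65 at day 7, and 5.01, 5.10 and 4.95 at day 21. Each day 7 array was above every array of the other days in both genotypes, and the wide arrays were the highest ones at day 7. Its rise to day 7 was 2.52 ± 0.38 log2 in Pax7+/+ (5.73-fold, limma adjusted p = 0.000771; 1.22 on narrow and 3.83 on wide arrays). In Pax7-/- the rise was 2.18 ± 0.37 (4.53-fold, adjusted p = 0.0029 by limma; 1.74 narrow, 3.05 wide). At this step 2 of 9 members were higher in Pax7+/+, Cyp26a1 and Stra6, against 2.54% of all genes, and 3 of 9 in Pax7-/-, Cyp26a1, Crabp1 and Dhrs3, against 2.05%.

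By the fitted values, the fall of Cyp26a1 to day 21 was smaller than its rise in Pax7+/+ and close in size to it in Pax7-/-. It was -1.89 ± 0.38 in Pax7+/+ (3.71-fold lower, limma adjusted p = 0.00743; -1.002 narrow, -2.37 wide) and -2.35 ± 0.38 in Pax7-/- (5.09-fold lower, adjusted p = 0.00818; -1.71 narrow, -3.14 wide). Cyp26a1 was the 1 member of 9 called at this step in each genotype, where 4.48% of all genes were lower in Pax7+/+ and 0.379% in Pax7-/-. Leaving out replicate 2 at day 7 or replicate 3 at day 21 of Pax7-/- ended the call in that genotype, with limma adjusted p-values up to 0.0766. Without the array set term the averaged rise (adjusted p = 0.00719) and fall (0.0423) of Cyp26a1 kept their calls and the 4 values within a genotype did not, with limma adjusted p-values from 0.0553 for the rise in Pax7+/+ to 1. At day 21 Cyp26a1 was 0.23 ± 0.27 above day 0 over both genotypes, a difference within its error. This average joins 0.63 ± 0.37 in Pax7+/+ (0.22 narrow, 1.45 wide) and -0.17 ± 0.38 in Pax7-/-. Neither was called (limma adjusted p = 0.304 and 0.838). In Pax7+/+ the day 21 arrays lay above those of day 0 without overlap, and 7.46% of all genes did not overlap there in either direction.

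Cyp26b1, the other clearing enzyme, showed no called difference. Its values ran from 4.40 to 6.34 at day 0, from 5.38 to 6.13 at day 7 and from 5.27 to 6.31 at day 21, with the low readings on wide arrays. Its 6 fitted group means spanned 0.40 log2, against 2.52 for Cyp26a1, and the averaged step to day 7 was 0.16 (95% interval -0.16 to 0.49). The array sets went opposite ways at this step, -0.25 on narrow and 0.74 on wide arrays, so the fitted value describes neither set.

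Uptake was described by Stra6, which imports retinol. In Pax7+/+ cells Stra6 read 5.67, 5.47 and 4.55 at day 0, 6.93, 7.56 and 7.99 at day 7, and 6.37, 7.04 and 6.15 at day 21. In Pax7-/- cells it read 5.76, 5.29 and 5.997 at day 0, 6.66, 7.21 and 6.22 at day 7, and 6.001, 6.02 and 6.26 at day 21. Day 7 lay above day 0 without overlap in both genotypes, and day 21 stayed above day 0 as well, by a narrow margin in Pax7-/-. The rise to day 7 was 2.21 ± 0.34 in Pax7+/+ (4.63-fold, limma adjusted p = 0.000762; 1.36 narrow, 3.22 wide). In Pax7-/- the value was 1.02 ± 0.33 (2.02-fold; 0.56 narrow, 1.92 wide), which missed the threshold (limma adjusted p = 0.107). The step in Pax7-/- differed from that in Pax7+/+ by -1.20 ± 0.47, which was not called (limma adjusted p = 0.408).

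The step of Stra6 from day 7 to day 21 was not called. It was -0.92 ± 0.34 in Pax7+/+, -0.66 ± 0.34 in Pax7-/- and -0.79 ± 0.23 averaged (limma adjusted p = 0.134, 0.47 and 0.0513). Against day 0, Stra6 at day 21 was called higher in Pax7+/+ and averaged. In Pax7-/- this difference was 0.36 ± 0.34 and was not called (limma adjusted p = 0.571). The Pax7+/+ and averaged values for Stra6 follow. In Pax7+/+ it was 1.29 ± 0.33 above day 0 (2.45-fold, limma adjusted p = 0.0135; 0.69 narrow, 2.49 wide), the 1 member of 9 called there, where 4.97% of all genes were higher. That call was lost without replicate 3 of day 0 or replicate 2 of day 21 (limma adjusted p up to 0.0942) and without the array set term (0.413). Averaged over genotypes the difference was 0.83 ± 0.23 (limma adjusted p = 0.0188), lost without replicate 3 of Pax7+/+ day 0 or replicate 2 of Pax7-/- day 0 (adjusted p up to 0.0881), on narrow arrays alone (0.0922) and without the array set term (0.23). With Crabp2 it made 2 of 9 members higher at day 21 than at day 0, where 10.2% of all genes were higher and 12% lower.

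Retinaldehyde is the branch point between Dhrs3 and Aldh1a2, and only Dhrs3, which sends it back to retinol, showed a called difference on these arrays. In Pax7+/+ cells Dhrs3 read 5.60, 5.41 and 6.22 at day 0, 5.65, 7.62 and 7.49 at day 7, and 5.19, 6.60 and 5.98 at day 21. In Pax7-/- cells it read 4.82, 5.15 and 5.02 at day 0, 5.89, 7.57 and 5.96 at day 7, and 5.39, 6.04 and 6.39 at day 21. In Pax7-/- every day 7 array exceeded every day 0 array. With both sets pooled, the narrow Pax7+/+ array of day 7 lay within the range of day 0. Within each set the Pax7+/+ arrays of day 7 were above those of day 0, by a small margin on narrow arrays (5.65 against 5.60). The rise was 1.48 ± 0.28 in Pax7-/- (2.78-fold, limma adjusted p = 0.00607; 1.005 narrow, 2.42 wide). In Pax7+/+ the value was 0.82 ± 0.29 (limma adjusted p = 0.117; 0.14 narrow, 1.34 wide). Averaged, Dhrs3 rose by 1.15 ± 0.20 (adjusted p = 0.00142 by limma) and then fell by 0.76 ± 0.20 (adjusted p = 0.0288). The averaged fall was called in 11 of the 18 fits that left out 1 array (limma adjusted p up to 0.0862). On narrow arrays alone the averaged rise was 0.57 (limma adjusted p = 0.0942) and the fall -0.30 (0.641), both short of the threshold, and without the array set term no Dhrs3 call remained.

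Aldh1a2, the enzyme that forms retinoic acid in the early embryo, stayed near or below the array medians. In Pax7+/+ it ran from 4.36 to 4.53 over all 9 arrays. In Pax7-/- it ran from 4.23 to 5.43, and the 2 values above 4.6 came from the wide replicate 2 arrays of day 0 (5.20) and day 7 (5.43). Its averaged step to day 7 was 0.07 (95% interval -0.26 to 0.40). The 3 Pax7+/+ arrays of day 7 (4.44 to 4.48) all exceeded those of day 0 (4.36 to 4.39). That difference was 0.08 on narrow and 0.08 on wide arrays, while the fit with 1 array set term for all groups gave -0.01 ± 0.22.

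Of the cytoplasmic binding proteins, Crabp2 had its highest fitted means at day 21, but its step from day 7 was not called. That step was 0.40 ± 0.28 in Pax7+/+, 0.78 ± 0.28 in Pax7-/- and 0.59 ± 0.19 averaged (limma adjusted p = 0.496, 0.243 and 0.0789). Crabp2 carries retinoic acid to the nucleus. In Pax7+/+ it read 6.03, 5.70 and 6.24 at day 0, 5.73, 6.68 and 6.46 at day 7, and 6.002, 7.23 and 6.11 at day 21. In Pax7-/- it read 5.84, 5.51 and 5.81 at day 0, 5.86, 7.00 and 6.40 at day 7, and 6.49, 7.67 and 8.16 at day 21. The Pax7-/- arrays of day 21 were clear of those of day 0, and in Pax7+/+ the groups overlapped. The rise from day 0 to day 21 was 1.48 ± 0.28 in Pax7-/- (2.79-fold, limma adjusted p = 0.00384; 0.67 narrow, 2.40 wide), the 1 member of 9 called there, against 4.92% of all genes higher. In Pax7+/+ the difference was 0.46 ± 0.27 (limma adjusted p = 0.306). The averaged value was 0.97 ± 0.20 (adjusted p = 0.00217 by limma). On narrow arrays alone neither Crabp2 call remained (limma adjusted p = 0.211 in Pax7-/- and 0.0917 averaged), nor did they without the array set term (0.351 and 0.187).

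Crabp1, which holds retinoic acid in the cytoplasm, rose in Pax7-/- embryoid bodies. In Pax7+/+ it read 7.81, 7.19 and 8.63 at day 0, 7.45, 8.66 and 8.52 at day 7, and 7.11, 8.72 and 7.29 at day 21. In Pax7-/- it read 7.32, 8.54 and 7.41 at day 0, 8.04, 9.06 and 8.34 at day 7, and 7.62, 9.03 and 8.81 at day 21. All groups overlapped when both sets were pooled, since each wide array read above the narrow arrays of its group. Within each set the Pax7-/- arrays of day 7 were above those of day 0. The rise was 0.72 ± 0.16 (1.65-fold, limma adjusted p = 0.0155; 0.82 narrow, 0.52 wide), and the same step in Pax7+/+ was -0.06 ± 0.16. The difference between these steps was 0.79 ± 0.22 and was not called (limma adjusted p = 0.187). The Pax7-/- call was lost without replicate 2 of day 0 or replicate 3 of day 7 (limma adjusted p up to 0.0848), on wide arrays alone (0.104) and without the array set term (1).

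Of the receptors, Rarb rose and Rara did not. Rarb is itself a textbook target of retinoic acid. In Pax7+/+ Rarb read 4.997, 4.99 and 4.44 at day 0, 5.20, 5.79 and 5.88 at day 7, and 4.78, 5.09 and 4.95 at day 21. In Pax7-/- it read 4.94, 3.73 and 4.97 at day 0, 5.43, 5.82 and 5.30 at day 7, and 5.02, 4.55 and 4.48 at day 21. Every day 7 array (lowest 5.20) was above every array of the other days (highest 5.09) in both genotypes. The levels are low, from 3.73 to 5.88 where array medians lay between 4.55 and 4.97. Averaged over genotypes Rarb rose by 0.92 ± 0.20 to day 7 (1.89-fold, limma adjusted p = 0.00809; 0.31 narrow, 1.74 wide) and fell by 0.75 ± 0.20 to day 21 (adjusted p = 0.0317; -0.34 narrow, -1.02 wide). Within a genotype the step to day 7 missed the threshold, at 0.87 ± 0.29 in Pax7+/+ and 0.96 ± 0.28 in Pax7-/- (limma adjusted p = 0.0991 and 0.073). The averaged fall was called in 11 of 18 fits that left out 1 array (limma adjusted p up to 0.0937). On narrow arrays alone the limma adjusted p was 0.128 for the rise and 0.206 for the fall, and without the array set term 0.334 and 0.714.

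Rara, the broadly expressed receptor, ran from 6.16 to 7.30 at day 0, from 6.27 to 7.01 at day 7 and from 6.02 to 6.85 at day 21. Its fitted group means spanned 0.39 log2, and the averaged step to day 7 was 0.01 (95% interval -0.24 to 0.26). That step was 0.14 on narrow and -0.23 on wide arrays.

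Only 6 of the 22180 genes (0.0271%) had all 6 day 7 arrays above all 12 arrays of days 0 and 21, and 2 of the 9 members were among them. The 6 were Cyp26a1, Rarb, Hoxa3, Hoxa5, Hoxb4 and Chrna5, a nicotinic acetylcholine receptor subunit; they were listed after their values were seen. Their margins were small apart from Cyp26a1: Hoxa5 read at least 4.92 at day 7 and at most 4.92 elsewhere, and Hoxb4 at least 5.03 against at most 4.99. Read within each set, 55 genes (0.248%) had this order, and the same number of members, 2, was among them.

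No member differed between the genotypes past the threshold. At day 0, 0 of 9 were called, against 1.28% of all genes, and 1 had an unadjusted limma p under 0.05. At day 7, 0 of 9 were called, against 0.627%, and 3 had such a p; no member's arrays were free of overlap between genotypes there, as those of 3.12% of all genes were. At day 21, 0 of 9 were called, against 4.89%, and 2 had such a p. For the change of the genotype difference 0 of 9 were called from day 0 to day 7 (0.482% of all genes) and from day 7 to day 21 (0.911%), with 2 and 0 unadjusted p-values under 0.05. The percentages of genes called hold for the adjusted threshold. The share of all genes with an unadjusted p under 0.05 is not given here, so those counts say nothing particular about the members.

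The genotype differences nearest to the threshold concerned the binding proteins and Dhrs3. Crabp1 was 0.66 ± 0.16 higher in Pax7-/- at day 7 (limma adjusted p = 0.0769; 0.74 narrow, 0.47 wide), and its call appeared after quantile normalization (adjusted p = 0.0271) and in 1 of 18 fits that left out 1 array. Its difference at day 21 was 0.38 ± 0.16 (limma adjusted p = 0.22). Crabp2 was 0.75 ± 0.28 above Pax7+/+ at day 21 (limma adjusted p = 0.158; 0.44 narrow, 0.69 wide). Dhrs3 at day 0 was -0.75 ± 0.28 in Pax7-/- against Pax7+/+ (limma adjusted p = 0.28), and its highest Pax7-/- array (5.15) lay below its lowest Pax7+/+ array (5.41); the arrays of both genotypes did not overlap, in either direction, for 3.49% of all genes. At day 21 Cyp26a1 was at 5.10 or less in Pax7-/- and at 5.16 or more in Pax7+/+, and 4.05% of all genes did not overlap there in either direction.

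The day 7 level of Cyp26a1 differed between genotypes by -0.03 (95% interval -0.84 to 0.78), an interval that leaves room for a difference of about 0.8 log2 either way. For Rarb the day 7 difference was -0.17 (-0.78 to 0.44), for Dhrs3 -0.10 (-0.70 to 0.51) and for Stra6 -0.74 (-1.46 to -0.03; limma adjusted p = 0.474). On narrow and wide arrays these differences were 0.52 and 0.17 for Cyp26a1 and 0.16 and -0.02 for Rarb. They were 0.28 and 0.01 for Dhrs3, and -0.49 and -0.56 for Stra6. Each fitted value lay below both of its within-set values, so the sign for Cyp26a1 and Dhrs3 depends on the fit. The 3 arrays per group limit the precision of all these values.

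**Figure D2:**
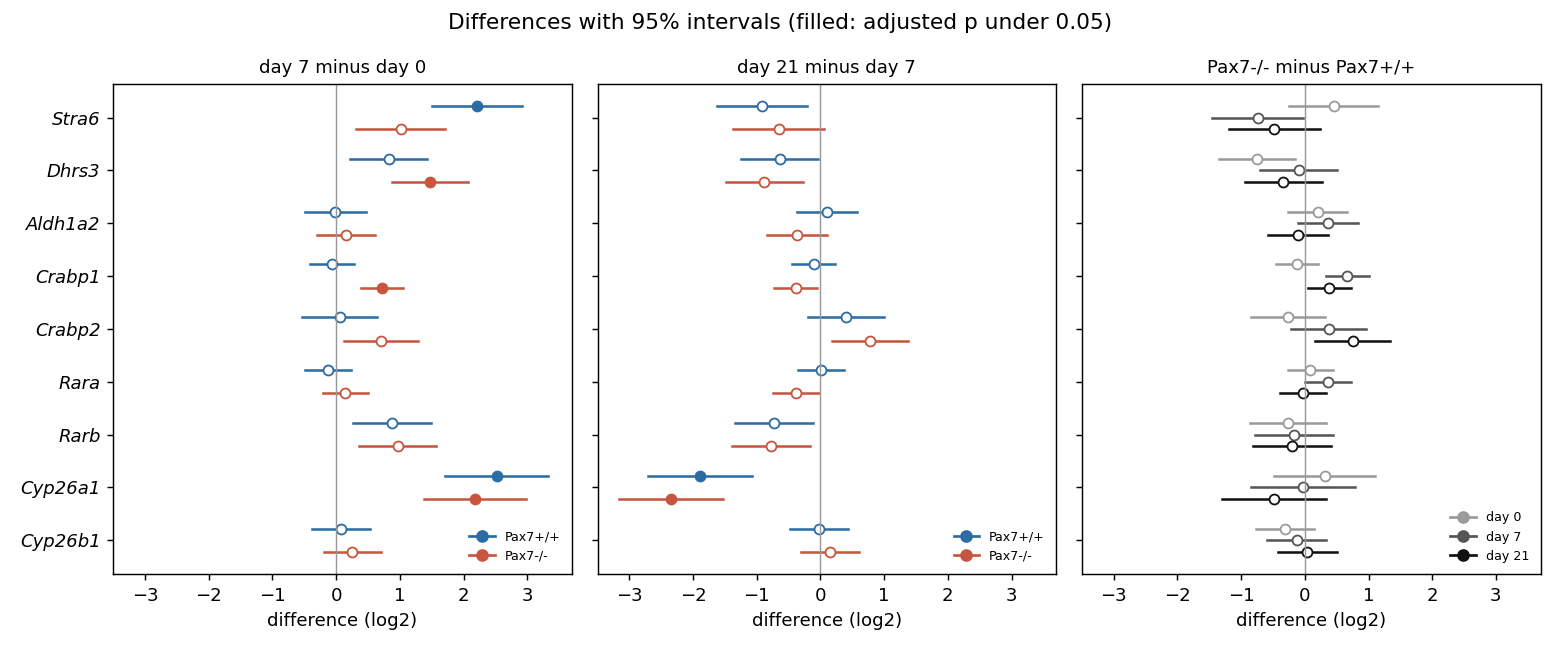
Differences (log2) of the 9 genes with 95% intervals from the limma fit: the steps to day 7 and to day 21 within each genotype, and Pax7-/- minus Pax7+/+ at each day. The steps of Cyp26a1 stand farthest from 0, and no genotype difference passed the threshold of 0.05.

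Other genes of the pathway changed in both directions. Of 34 further genes for vitamin A transport, retinoid enzymes, receptors and coregulators 30 were analysed. Averaged over genotypes, 5 of the 30 were higher and 4 lower at day 7 than at day 0, where 4.78% of all genes were higher and 4.99% lower. Their median change was 0.01 beside -0.01 over all genes. The 2 largest rises were in the retinol carriers, Rbp4 with 1.26 ± 0.36 (limma adjusted p = 0.0353; 0.43 narrow, 2.50 wide) and Ttr, which carries Rbp4 in plasma, with 1.23 ± 0.32 (adjusted p = 0.022; 0.53 narrow, 2.41 wide). The others that rose were Rdh10, which makes retinaldehyde (0.84 ± 0.20, limma adjusted p = 0.0135), the corepressor Nrip1 (0.79 ± 0.13) and the coactivator Ncoa2 (0.36 ± 0.11). The receptor Rarg fell by 0.88 ± 0.17 (limma adjusted p = 0.00275) and stayed low at day 21, 1.03 ± 0.17 below day 0. The coactivator Ncoa3 fell by 0.39 ± 0.09 to day 7 and by a further 0.53 ± 0.09 to day 21 (limma adjusted p = 0.0109 and 0.00227). Adh5 and Ncoa1 were the other genes that fell to day 7. At day 21 Ncoa3 was 0.58 ± 0.13 lower in Pax7-/- than in Pax7+/+ (adjusted p = 0.0167 by limma), the 1 genotype difference among the 30 at that day, where 4.89% of all genes were called. At days 0 and 7 none of the 30 was called (1.28% and 0.627% of all genes).

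Several known retinoic acid response genes were higher at day 7. Of 20 response genes 16 were analysed. Averaged over genotypes, 8 were higher and none lower at day 7, against 4.78% and 4.99% of all genes. Their median change was 0.68 beside -0.01 over all genes. Within a genotype 7 of 16 were higher in Pax7+/+ and 5 of 16 in Pax7-/- (2.54% and 2.05% of all genes). The lists overlap: Nrip1 is also among the further pathway genes above, so its rise is counted in both, and Hoxb1 is also in the Hox list below. The endoderm transcription factor Gata6 rose by 2.49 ± 0.19 (limma adjusted p = 5.395e-07; 2.14 narrow, 3.02 wide) and the Hox cofactor Meis2 by 1.75 ± 0.21 (adjusted p = 5.79e-05; 1.19 narrow, 2.59 wide). From day 7 to day 21, averaged, 4 of the 16 fell and none rose, where 4.82% of all genes were lower and 2.5% higher. Within a genotype 2 fell in Pax7+/+ and 0 in Pax7-/- (4.48% and 0.379% of all genes). The largest of these falls were those of Tshz1 (by 1.16 ± 0.22) and Lefty1 (by 1.10 ± 0.24). Gata6 was still 2.59 ± 0.19 above day 0 at day 21. At day 0 Gata6 was 1.26 ± 0.27 higher in Pax7-/- (limma adjusted p = 0.03), the 1 genotype difference among these 16 genes at any day, where 1.28% of all genes were called at day 0.

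Several Hox genes, which pattern the body axis, rose to day 7 and fell to day 21. Of 18 genes of the 3′ and middle clusters 16 were analysed. Averaged over genotypes, 9 were higher at day 7 and none lower (4.78% and 4.99% of all genes), with a median of 0.51. Within a genotype 3 of 16 were higher in each (2.54% of all genes in Pax7+/+ and 2.05% in Pax7-/-). From day 7 to day 21, again averaged, 10 were lower and none higher (4.82% and 2.5% of all genes), with a median of -0.47. Within a genotype 2 of 16 were lower in Pax7+/+ and 0 in Pax7-/- (4.48% and 0.379% of all genes). At day 21 against day 0 none was called, where 10.2% of all genes were higher and 12% lower. Hoxa5 rose by 1.02 ± 0.25 and fell by 1.32 ± 0.24 (limma adjusted p = 0.0144 and 0.00397), and Hoxa4 rose by 0.90 ± 0.17 and fell by 0.84 ± 0.17 (adjusted p = 0.00313 and 0.00804). The rise was smaller on narrow arrays (median 0.20) than on wide arrays (0.89), and most of these genes read near the array medians. Median changes kept their direction at both steps under all scalings tried, but without the array set term no Hox gene and no response gene was called at either step, and on narrow arrays alone 2 Hox genes rose and none fell. Both lists were written with earlier results of these arrays known, so their direction is not independent evidence.

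**Figure D3:**
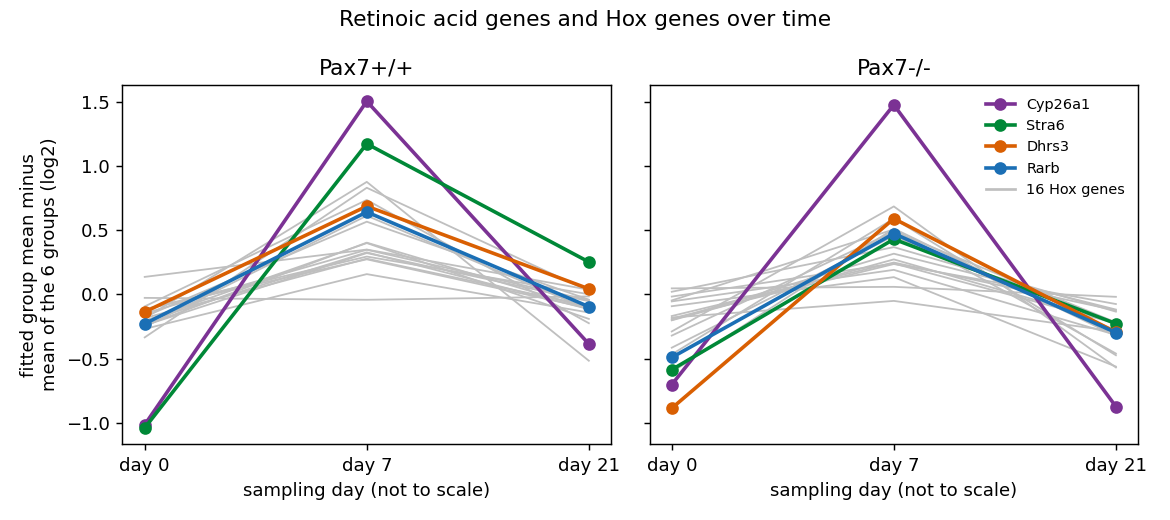
Fitted group means (log2) of Cyp26a1, Stra6, Dhrs3 and Rarb (coloured) and of the 16 Hox genes (grey) at days 0, 7 and 21, each minus the mean of its 6 groups, in Pax7+/+ (left) and Pax7-/- (right). The 4 coloured genes have their peak at day 7 in both genotypes. Averaged over genotypes, the median change of the Hox genes is 0.51 to day 7 and -0.47 from there to day 21.

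By the shape of their 6 fitted group means, each centred on its own mean, the genes most like Dhrs3 were Hoxb3, Rarb and Hoxa4, with root mean square differences of 0.16, 0.18 and 0.20 log2 over the 6 groups (18 arrays). The genes most like Stra6 were Pcbd1, Msl3 and Tfpi (0.17, 0.20 and 0.21). Those most like Cyp26a1 were Npl, Sox7 and Slc44a3, at a larger distance (0.37, 0.46 and 0.48). These likenesses are descriptions over groups that share arrays.

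The RNA of cell type markers changed over the same days. Averaged over genotypes, 6 of 7 visceral endoderm markers rose to day 7 and none fell, with a median change of 1.44. Of 7 parietal endoderm markers 6 rose and 1 fell (median 1.52), and 5 of 7 pluripotency markers fell (median -1.10). Of all genes 4.78% were higher and 4.99% lower at this step. The mean of the visceral endoderm list ran from 4.91 to 6.21 on day 0 arrays, from 6.95 to 8.18 on day 7 arrays and from 5.999 to 8.11 on day 21 arrays. For parietal endoderm the ranges were 6.32 to 7.72, 8.14 to 8.95 and 7.53 to 9.20. At day 21 the median change from day 0 was 0.63 for the visceral and 1.18 for the parietal list, beside 0.03 for the Hox list. At the step to day 7, 2 of 6 neural progenitor markers were higher, 2 of 5 neuronal markers were higher and 2 lower, and 1 of 7 mesenchyme markers was higher and 1 lower. Of 5 cardiac muscle markers none was called at that step. From day 7 to day 21, averaged, 3 of 5 cardiac, 4 of 7 mesenchyme and 3 of 6 neural progenitor markers were higher and none lower. At that step 3 of 7 pluripotency, 1 of 7 visceral and 1 of 7 parietal endoderm markers were lower and none higher. None of the 5 neuronal markers was called there. Of all genes 2.5% were higher and 4.82% lower from day 7 to day 21. The part of these markers in the changes of the retinoic acid genes was not tested. In bulk RNA, more cells that express a gene and more RNA per cell cannot be told apart.

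Both array sets gave the called differences the same direction, but not the same size. Of the 9 members 8 had a larger averaged step to day 7 on wide arrays, as had 70.1% of all genes, and 7 of 9 had a larger step from day 7 to day 21, as had 61.5% of all genes. For Cyp26a1 the averaged rise was 1.48 on narrow and 3.44 on wide arrays, and for Stra6 0.96 and 2.57. In both sets Cyp26a1 had the largest and Stra6 the next largest averaged rise of the 9 members.

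**Figure D4:**
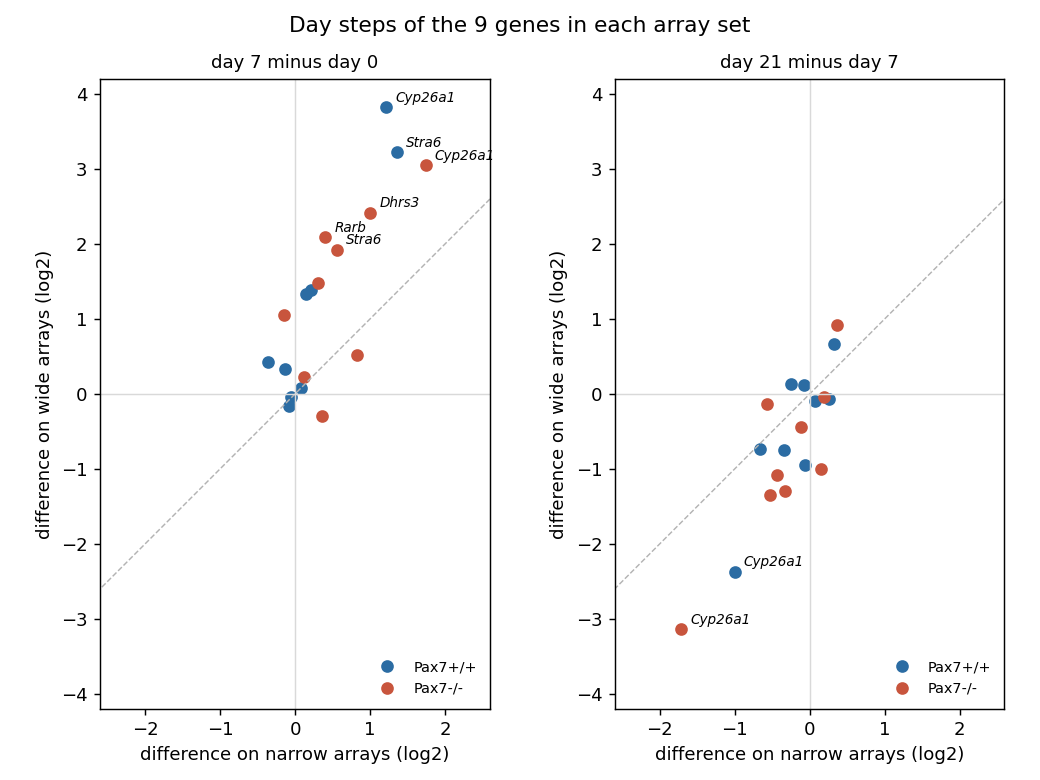
Day steps (log2) of the 9 genes on wide arrays (vertical axis) against narrow arrays (horizontal axis), for day 7 minus day 0 and day 21 minus day 7 in each genotype, with the line of equal size dashed. Cyp26a1 lies farthest from the origin at both steps, and most members lie farther from 0 on the wide axis.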

How the data were processed

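RNA of 18 samples was hybridised to Affymetrix arrays, 3 for each genotype and day as the labels give them. Each probe set has a deposited log2 intensity per array; the submitters' processing notes name RMA and Partek, without versions. Of 41345 probe sets 23521 carried 1 gene symbol (platform annotation, updated to RefSeq by gene identifier), 1814 several and 16010 none. Each gene was read from its brightest probe set by the mean of the 18 arrays, giving 22180 genes; 1082 of these had several probe sets, and no gene was removed for low signal. For arrays, their number limits the precision: 3 against 3 cannot reach an exact permutation p below 0.1.

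Group differences were fitted with limma 3.58.1 (R 4.3.3): 6 group means plus the array set (wide where the SD over probe sets exceeds 1.6), 11 residual degrees of freedom, empirical Bayes, Benjamini-Hochberg adjustment over all genes, threshold 0.05. The fit covered 11 comparisons; the 3 day steps averaged over both genotypes were added after values had been seen. The code was tested on simulated data. The members and lists were chosen with earlier results of these data known. All 9 members are named; of each other list, the 2 largest called rises and falls per comparison, and for likeness the 3 nearest genes of members whose means span 1.5 log2 or more. Other genes named were picked after their values were seen. No pairing by replicate number was used, as same-numbered arrays of a day correlated between -0.215 and 0.231 with the array set removed. Promoter windows come from RefSeq (GRCm38.p6), which holds one for 8 of the 9 members. Alternatives covered the array set, normalization, a filter on low values, probe set choice, limma options, the threshold and leaving out each array.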

Additional observations from a re-analysis of the deposited data

How the results depend on the processing

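The 18 called differences of members kept their direction under every alternative run. All 18 kept their call with the array set as a random block, with arrays centred on their medians, with the mean of all probe sets, with trend and robust options, after quantile normalization and after scaling to the same SD, and so did the 16 that remained with genes above the median level alone (7 members). The array set was the choice that moved the counts most. Without its term 4 of 18 calls remained: the counts fell from 2 to 1 (Pax7+/+) and from 3 to 0 (Pax7-/-) for the step to day 7, from 1 to 0 in each genotype for the step to day 21 and for day 21 against day 0, and, averaged, from 4 to 2, from 3 to 1 and from 2 to 0. On narrow arrays alone 11 of 18 remained, with 2 (step to day 7), 1 (step to day 21) and 0 (day 21 against day 0) averaged and 0 for day 21 against day 0 in Pax7-/-. On wide arrays alone, with 2 residual degrees of freedom, 17 of 18 remained and 37 were added: 4 and 6 for the step to day 7 (Pax7+/+ and Pax7-/-), 3 and 5 for the step to day 21, 4 and 7 for day 21 against day 0, 6, 6 and 7 averaged, and 3, 1 and 2 for the genotype difference at days 0, 7 and 21. Quantile normalization gave 5 for the step to day 7 in Pax7-/-, 2 for the step to day 21 and 2 for day 21 against day 0 in Pax7+/+, 5 for the averaged step to day 21 and 1 for the genotype difference at day 7. Scaling to the same SD gave 5 for the step to day 7 in Pax7-/- and 5 for the averaged step to day 21. A threshold of 0.01 left 13 of 18, with 0 for day 21 against day 0 in Pax7+/+ and 1 each for the averaged step to day 21 and the averaged day 21 against day 0. The cause of these shifts was not tested. The fits to 1 set also hold fewer arrays and leave some groups with 1 array. The share of all genes called is not given for these alternatives or for the fits that left out 1 array. Their counts therefore show how far the calls depend on the processing and are not results about the members.

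Leaving out 1 array at a time, the counts ranged from 2 to 4 in each genotype and from 4 to 5 averaged for the step to day 7. They ranged from 1 to 3 (Pax7+/+), 0 to 1 (Pax7-/-) and 1 to 5 (averaged) for the step to day 21, and from 0 to 1, 1 to 1 and 1 to 2 for day 21 against day 0. For the genotype difference they were 0 at days 0 and 21 and 0 to 1 at day 7, and 0 for its changes over time. A fit with the replicate number as a block gave 2 and 3 for the step to day 7 in Pax7+/+ and Pax7-/-, 4 averaged, and kept 17 of 18 calls; the averaged fall of Rarb to day 21 missed the threshold there (limma adjusted p = 0.0545). The numbers do not pair the samples.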
